A study of Mus musculus with 12 samples.

Results

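The 9 genes described here code for machinery through which acetylated chromatin is coupled to transcript elongation, and for genes known to respond when that machinery is inhibited. They are the BET family readers Brd2 and Brd3, the P-TEFb subunits Cdk9, Ccnt1 and Ccnt2, the P-TEFb inhibitor Hexim1, the transcription factors Myc and Mycn, and Serpini1. They were picked by name and function from the 55487 genes of the expression table, with earlier results of these data known. In limma 8 of the 9 were tested among 16016 genes, since Mycn stayed under the limit on low values (a TPM, the share of transcripts on a fixed scale that is per gene length, of at least 1 in at least 3 libraries).

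Poly(A) RNA-seq was made of 12 libraries of cultured mouse cochlear cells, 3 biological replicates in each of 4 groups. All groups came from the modiolus, the core of the cochlea, of postnatal day 4 mice of both sexes on a mixed C57Bl6 and FVB/N background, with several animals pooled, and all cells had first grown as glial spheres. The group Sphere was kept in EGF (20 ng/ml), IGF (50 ng/ml), heparan sulfate (50 ng/ml) and bFGF (10 ng/ml). SCDM cells were differentiated for 14 days in DMEM/F12 with the neurotrophins BDNF and NT3 (50 ng/ml each), and SCDM/FGF cells also received bFGF (100 ng/ml). FIBCL cells were differentiated for 14 days in Neurobasal medium with bFGF, Forskolin (20 μM, which raises cAMP), ISX9 (20 μM), the BET inhibitor I-BET151 (I-BET, 1 μM in the labels), the GSK3 inhibitor CHIR99021 (10 μM) and LIF (1000 U/ml). B27 and N2 supplements were in every medium. The labels list bFGF in the FIBCL medium both at 100 and at 50 ng/ml, and the table columns matched to FIBCL are named FIBC, without the letter that stands for LIF. No group had I-BET151 alone. FIBCL differed from the SCDM media in its basal medium and growth factors as well as in 5 added agents, so the part of I-BET151 in any difference of FIBCL cannot be told apart.

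BET proteins carry paired bromodomains that bind acetylated lysines of histones. P-TEFb is the kinase CDK9 bound to cyclin T1 or T2, and it phosphorylates RNA polymerase II and the pausing factors NELF and DSIF, which releases a paused polymerase into elongation. A large share of P-TEFb is held inactive in a particle of 7SK RNA, HEXIM1 or HEXIM2, LARP7 and MEPCE. Inhibitors of BET bromodomains displace the readers from chromatin, and in many cell types a fall of Myc and a rise of Hexim1 are used as markers of their action.

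The upstream sequences of Hexim1, Serpini1 and Brd2, the 3 members called higher in FIBCL than in each other group, are shown so that they can be read beside their values. They are RefSeq promoter windows on GRCm38.p6, 5′ to 3′ on the strand of the gene, cut where an annotated exon of the gene begins, with a GC box GGGCGG, the letters bound by Sp1 family factors, in capitals. The Hexim1 stretch lies at chr11:103116075-103116230 on the plus strand, the Serpini1 stretch at chr3:75557243-75557492 on the plus strand, and the Brd2 stretch, the upstream one of its annotated starts, at chr17:34122635-34122857 on the minus strand.
Hexim1: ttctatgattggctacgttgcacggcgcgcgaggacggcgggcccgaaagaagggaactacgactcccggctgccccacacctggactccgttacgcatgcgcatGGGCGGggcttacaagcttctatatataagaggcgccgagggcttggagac
Serpini1: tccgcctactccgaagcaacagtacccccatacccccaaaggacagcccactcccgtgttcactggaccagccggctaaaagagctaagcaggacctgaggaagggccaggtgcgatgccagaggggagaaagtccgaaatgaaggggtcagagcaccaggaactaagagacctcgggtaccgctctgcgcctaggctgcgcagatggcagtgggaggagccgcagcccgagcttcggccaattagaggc
Brd2: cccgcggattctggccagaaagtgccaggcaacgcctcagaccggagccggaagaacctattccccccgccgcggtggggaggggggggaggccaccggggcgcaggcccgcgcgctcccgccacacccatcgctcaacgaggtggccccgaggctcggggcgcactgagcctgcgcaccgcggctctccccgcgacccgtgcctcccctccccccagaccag

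A promoter entry was found for 8 of the 9 members, all except Myc, with 10 starts in all. On either strand of the 250 bases before each start, the E-box CACGTG, which MYC and MAX bind, the cAMP response element TGACGTCA and the TATA sequence TATAAA matched in 0 of the 10 windows. Only these exact letters were counted, so the similar run tatataag near the end of the printed Hexim1 stretch was not. Among all 32851 promoter windows of the same length, 6.02% held the E-box, 1.55% the cAMP response element and 12.4% the TATA sequence. The GC box stood in 32.7% of all windows. Among the members it was present in the windows of Hexim1, Brd3, Cdk9, Ccnt1, Ccnt2, Mycn and a start of Brd2 that is not printed, with its window at chr17:34121748-34121997. The 10 member windows held 54.8% to 78.8% G and C, beside a median of 52.4% for all windows. Whether the GC box is more frequent in the members than their base content gives was not tested. The Serpini1 window held none of these motifs.

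All 9 genes are protein coding in GENCODE M21 (GRCm38), whose coordinates are given. Brd2 (ENSMUSG00000024335) is at chr17:34112023-34122634, Brd3 (ENSMUSG00000026918) at chr2:27445579-27507662 and Cdk9 (ENSMUSG00000009555) at chr2:32705784-32713076. Ccnt1 (ENSMUSG00000011960) is at chr15:98538689-98570923, Ccnt2 (ENSMUSG00000026349) at chr1:127774164-127808061 and Hexim1 (ENSMUSG00000048878) at chr11:103116231-103119725. Myc (ENSMUSG00000022346) is at chr15:61985391-61990374, Mycn (ENSMUSG00000037169) at chr12:12936093-12941914 and Serpini1 (ENSMUSG00000027834) at chr3:75557547-75643495. Whether the counting used the strand is not given in the sources used here. Brd2 shares 360 exon bases with H2-DMa on the other strand, whose deposited level was between 4.22 and 15.7 TPM, and Ccnt1 shares 695 bases with the antisense gene 9330020H09Rik, which did not exceed 0.9 TPM.

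FIBCL libraries had 899295 to 911076 listed TPM in all, against 982067 to 994845 elsewhere, and 21625 to 22281 genes were above 0 in a library. The number of reads is unknown. Levels are given as scaled TPM, that is TPM rescaled between libraries, which is comparable between genes because TPM is per length. The rescaling raised FIBCL relative to the rest: the median log2 fold change of all tested genes between FIBCL and SCDM was -0.07 after it and -0.40 in the deposited TPM. The corresponding medians were -0.05 and -0.31 against SCDM/FGF, and -0.06 and -0.51 against Sphere. Differences are therefore given after rescaling, with the value in deposited TPM where it alters the direction, the call or the size.

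The composition of the cultures differed together with the genes described here. The summed level of 10 neuron markers was 530 to 562 scaled TPM in FIBCL and 18.5 to 37.9 in the other groups. Of the 10, Elavl4 and Rbfox3 did not pass the limit on low values, and their means were under 1 in FIBCL too. The sum in FIBCL thus rests on the other 8. The sum of 8 glia markers was 16.2 to 22.1 in FIBCL, 515 to 543 in Sphere, 175 to 203 in SCDM and 173 to 192 in SCDM/FGF. The sum of 7 mesenchyme markers was 2513 to 2551 in Sphere, 5241 to 5952 in both SCDM media and 55.2 to 57 in FIBCL, so the cultures labelled as glial spheres or as induced neurons in the SCDM media also held abundant collagen transcripts. The sum of 8 macrophage markers was 90.8 to 109 in Sphere, 1238 to 1468 in both SCDM media and 158 to 183 in FIBCL. Of the FIBCL sum, with a mean of 171, Cd68, a lysosomal protein gene, made up 165, and the defining markers C1qa and Csf1r had means of 0.385 and 0.335. Against Sphere 7 of the 8 were lower in FIBCL, with a median of -1.21, and Cd68 was higher. Between FIBCL and SCDM 8 of 8 macrophage, 7 of 7 mesenchyme and 7 of 8 glia markers were lower, and 12 of 12 proliferation genes. The sum of 4 endothelium markers was at most 40 in any library. In such bulk samples fewer cells of a type and less RNA per cell cannot be told apart, and the part of this composition in the results that follow was not tested.

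**Figure D1:**
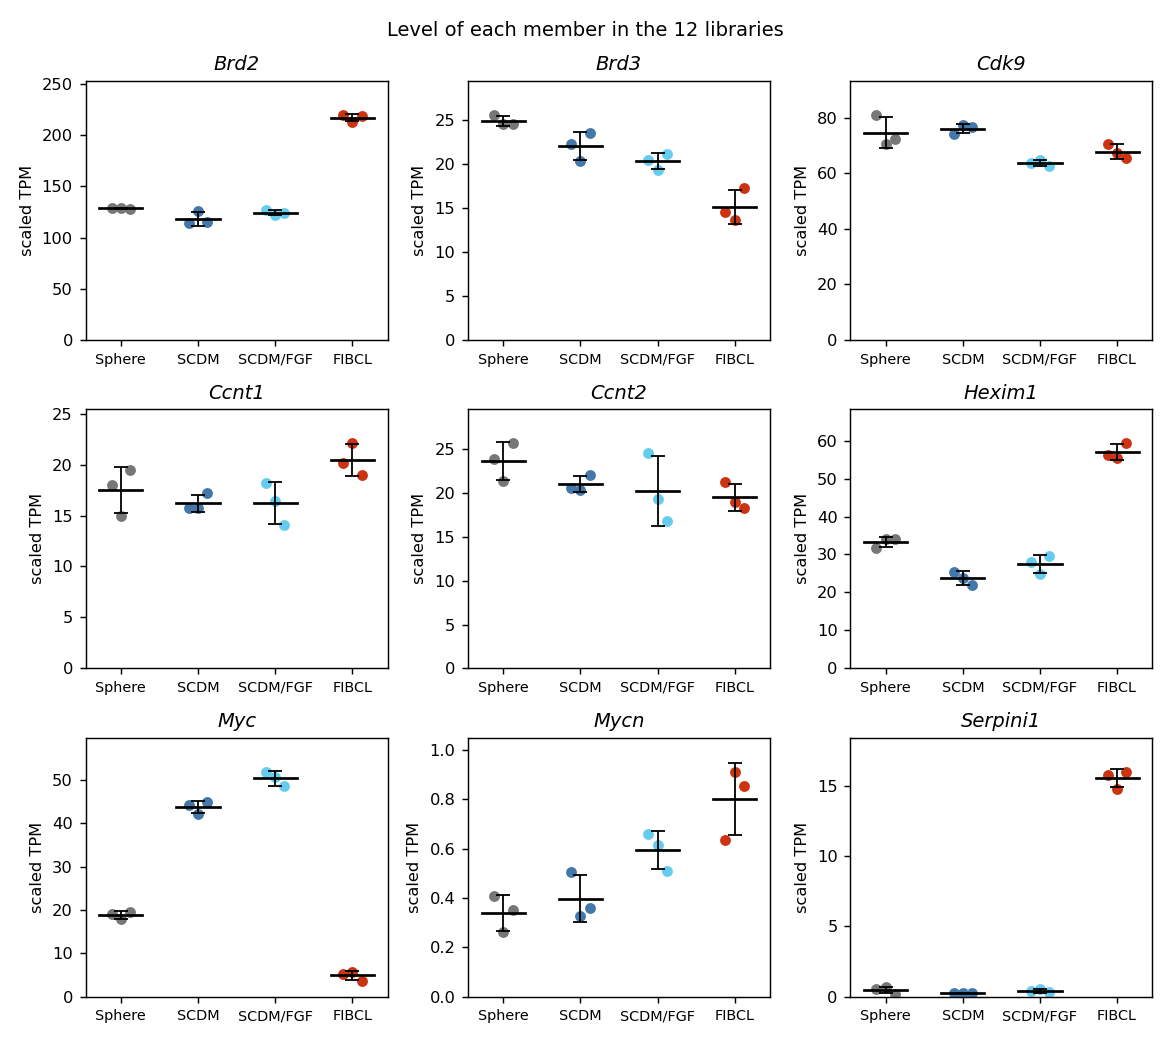
Scaled TPM (vertical axes, from 0) of the 9 genes in Sphere, SCDM, SCDM/FGF and FIBCL. Points are the 3 libraries of a group, the bar is their mean and the error bar 1 SD. Brd2, Hexim1 and Serpini1 are highest in FIBCL and Brd3 and Myc lowest, while Cdk9, Ccnt1 and Ccnt2 stay within a narrow range.

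Between FIBCL and SCDM, 7 of the 8 tested members changed, Serpini1 among them, which passed the limit on low values only through FIBCL. They were 4 higher (Brd2, Ccnt1, Hexim1, Serpini1) and 3 lower (Brd3, Cdk9, Myc), at an adjusted p under 0.05 in limma. Of all 16016 genes 71.7% were called in this comparison, so the share of members called is not a result about them. Higher calls made up 32.7% of all genes and lower calls 39%. With a log2 change of at least 1 also required, Hexim1 and Serpini1 were higher and Myc lower, beside 13.2% of all genes higher and 16.2% lower. In the deposited TPM the split was 3 higher and 4 lower, because Ccnt1 was no longer called and Ccnt2 was called lower. The libraries of both groups did not overlap for 7 members, beside 74.7% of all genes.

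Against SCDM/FGF, 4 members were higher and 2 lower, beside 70.7% of all genes called (32.5% higher and 38.2% lower), and in deposited TPM 3 were higher and 4 lower. The groups did not overlap for 7 members, beside 72.9% of all genes. Against Sphere, 3 were higher and 3 lower, beside 71.6% of all genes called (32.9% higher and 38.7% lower). In deposited TPM the split was 3 and 5. The groups did not overlap for 6 members, beside 75% of all genes. The 3 comparisons share the FIBCL libraries.

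**Figure D2:**
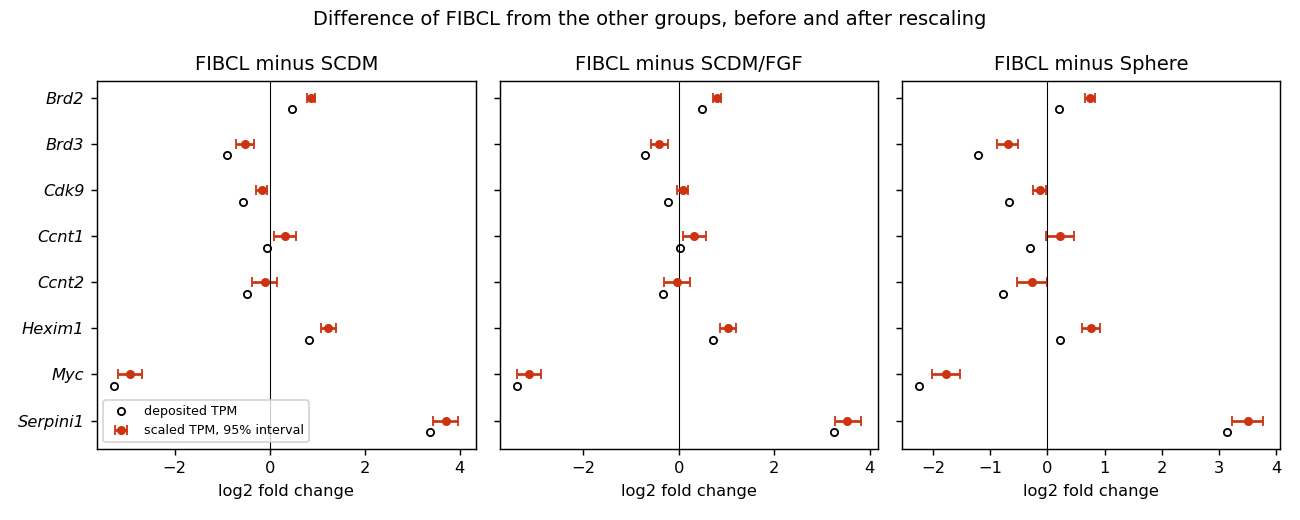
Log2 fold change of FIBCL from SCDM, SCDM/FGF and Sphere (horizontal axes) for the 8 tested genes. Filled points are scaled TPM with the 95% confidence interval, and open points the deposited TPM. Brd2, Hexim1 and Serpini1 lie to the right of 0 and Brd3 and Myc to the left on both scales in each panel, while Ccnt1 crosses 0 between the scales against SCDM and Sphere and Cdk9 against SCDM/FGF.

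Brd2, a broadly expressed BET reader, was raised in FIBCL above every other group. Its level in scaled TPM was 220, 213 and 219 in the FIBCL libraries, 114, 126 and 115 in SCDM, 127, 122 and 124 in SCDM/FGF and 129, 129 and 128 in Sphere. The lowest FIBCL library lay well above the highest of the other 9. The log2 fold change was 0.87 from SCDM (SE 0.04, adjusted p = 3.74e-09), 0.80 from SCDM/FGF and 0.75 from Sphere. It was smaller in deposited TPM, at 0.47, 0.49 and 0.21, and remained called in each (adjusted p = 0.00407 at most). The H2-DMa transcripts that overlap Brd2 were at 15.7 TPM or less in any library.

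Brd3, the other BET reader among the members, went the opposite way. Its level was 14.5, 13.6 and 17.3 in FIBCL, 22.3, 20.3 and 23.5 in SCDM, 20.5, 19.3 and 21.1 in SCDM/FGF and 25.6, 24.6 and 24.6 in Sphere. Every FIBCL library was below every other library. The log2 fold change was -0.52 from SCDM (SE 0.084, adjusted p = 0.000162), -0.41 from SCDM/FGF and -0.69 from Sphere, and in deposited TPM it was -0.90, -0.70 and -1.21. Brd2 and Brd3 were called in these directions in all 3 comparisons with FIBCL under each of the 16 alternatives run.

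The testis BET protein gene Brdt was low in all groups, with means of 3.38 scaled TPM in FIBCL, 3.85 in Sphere, 2.91 in SCDM and 2.85 in SCDM/FGF. Its log2 fold change of 0.16 between FIBCL and SCDM was not called (adjusted p = 0.226).

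The opposite direction of the pair shows in the ratio of Brd2 to Brd3 within a library, which does not move with the scaling. The ratio was 15.2, 15.7 and 12.7 in FIBCL, 5.14, 6.21 and 4.88 in SCDM, 6.22, 6.3 and 5.86 in SCDM/FGF and 5.03, 5.23 and 5.21 in Sphere. The log2 ratio was 1.43 higher in FIBCL than in SCDM, 1.24 higher than in SCDM/FGF and 1.49 higher than in Sphere, with no overlap in any of these. Each gave a two-sided exact permutation p of 0.1, the smallest that 3 against 3 libraries can give, and an adjusted p of 0.136 over the 30 tests of ratios.

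Among 32 other bromodomain proteins, all of which were tested, 4 were higher and 16 lower in FIBCL than in SCDM. These counts stand beside 32.7% of all genes higher and 39% lower. The median log2 fold change was -0.30 beside -0.07 for all genes. In deposited TPM 2 were higher and 24 lower. The largest differences were in Atad2, an ATPase with a bromodomain linked to dividing cells (2.91 against 13.2 scaled TPM, log2 fold change -1.87, adjusted p = 2.95e-08), Kat2b, the acetyltransferase PCAF (-1.59), and Zmynd11, a reader of methylated histone H3.3 (-1.12). Against Sphere 3 were higher and 19 lower, beside 32.9% and 38.7% of all genes, with a median of -0.36. Against SCDM/FGF the numbers were 4 and 15, beside 32.5% and 38.2% of all genes, with a median of -0.18.

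The catalytic subunit of P-TEFb, Cdk9, differed little between groups after rescaling. Its level was 70.6, 67.2 and 65.4 in FIBCL, 74.2, 77.2 and 76.6 in SCDM, 63.7, 64.6 and 62.7 in SCDM/FGF and 81, 70.4 and 72.4 in Sphere. FIBCL lay between both SCDM media and overlapped Sphere. From SCDM it fell by 0.16 on the log2 scale (95% interval -0.28 to -0.05, adjusted p = 0.0153), and this call was lost with quantile normalization (adjusted p = 0.0825) and without FIBCL replicate 3 (adjusted p = 0.0586). From SCDM/FGF the difference of 0.09 was not called, and it was -0.22 in deposited TPM. From Sphere it was -0.13 (adjusted p = 0.0378), and 8 of the 16 alternatives ended that call. In deposited TPM the values were -0.56 from SCDM (adjusted p = 1.93e-05) and -0.67 from Sphere (adjusted p = 3.65e-06), beside medians of all genes of -0.40 and -0.51. After rescaling, the difference from Sphere was -0.07 without Sphere replicate 1 (adjusted p = 0.164). It was -0.13 without FIBCL replicate 2 (0.0852) and -0.11 without FIBCL replicate 3 (0.123).

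The cyclin T genes were both expressed in all libraries at a level below that of Cdk9. Ccnt1 was at 20.2, 22.1 and 19 in FIBCL, 15.7, 15.7 and 17.2 in SCDM, 18.2, 16.4 and 14.1 in SCDM/FGF and 18, 15 and 19.5 in Sphere. FIBCL was above both SCDM media and overlapped Sphere. The log2 fold change was 0.32 from SCDM (SE 0.11, adjusted p = 0.0204) and 0.32 from SCDM/FGF (adjusted p = 0.0203), but in deposited TPM these were -0.06 and 0.02 and neither was called. The call from SCDM was also lost without SCDM replicate 1 (adjusted p = 0.0585), SCDM replicate 2 (0.0581) or FIBCL replicate 2 (0.0774), and that from SCDM/FGF without SCDM/FGF replicate 3 (0.0857) or FIBCL replicate 2 (0.077). From Sphere the difference was 0.22 and was not called (adjusted p = 0.091), and it was -0.30 in deposited TPM.

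Ccnt2 was at 21.3, 19 and 18.3 in FIBCL, 20.6, 20.4 and 22.1 in SCDM, 24.6, 19.3 and 16.8 in SCDM/FGF and 23.9, 21.4 and 25.7 in Sphere. The neighbouring groups in the order of its level overlapped throughout, but FIBCL and Sphere, the lowest and the highest, did not. No comparison after rescaling was called, and the interval of the log2 difference of FIBCL from SCDM ran from -0.37 to 0.16. In deposited TPM Ccnt2 was lower in FIBCL by each comparison, with -0.48 from SCDM (adjusted p = 0.00736) and -0.78 from Sphere (adjusted p = 0.000254).

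The balance of both cyclins nevertheless differed within libraries. The ratio of Ccnt1 to Ccnt2 was 0.947, 1.17 and 1.04 in FIBCL, 0.759, 0.769 and 0.781 in SCDM, 0.74, 0.847 and 0.839 in SCDM/FGF and 0.75, 0.703 and 0.758 in Sphere. FIBCL did not overlap any other group, and its log2 ratio was higher by 0.44 than in SCDM, 0.37 than in SCDM/FGF and 0.51 than in Sphere (two-sided exact permutation p = 0.1 each, adjusted p = 0.136).

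Hexim1, which binds 7SK RNA and holds P-TEFb inactive, was the member of the P-TEFb system with the clearest difference. Its level was 56.2, 55.5 and 59.3 scaled TPM in FIBCL, 25.5, 23.9 and 22 in SCDM, 28, 24.8 and 29.7 in SCDM/FGF and 31.7, 34 and 34.1 in Sphere. All FIBCL libraries stood above all others, and SCDM and SCDM/FGF overlapped at the low end. The log2 fold change was 1.23 from SCDM (SE 0.072, adjusted p = 2.95e-08), 1.03 from SCDM/FGF (adjusted p = 1.46e-07) and 0.76 from Sphere (adjusted p = 2.13e-06). In deposited TPM the values were 0.83, 0.72 and 0.22, and the last kept an adjusted p of 0.0142. Each of the 16 alternatives called Hexim1 higher in all 3 comparisons.

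Hexim1 had a lower level in both SCDM media than in the spheres they came from. It fell by 0.47 on the log2 scale from Sphere to SCDM (adjusted p = 0.000236) and by 0.27 from Sphere to SCDM/FGF (adjusted p = 0.00908), so FIBCL differed from Sphere less than from either medium.

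Its paralog Hexim2, which can stand in for HEXIM1 in the 7SK particle, fell by 1.03 on the log2 scale from SCDM to FIBCL (3.29 to 1.1 scaled TPM, adjusted p = 6.85e-06) and by 1.55 from Sphere. Mepce, the enzyme that caps 7SK RNA, was higher than in SCDM by 0.33 (adjusted p = 0.00311) and differed from Sphere by -0.04 (adjusted p = 0.707). Larp7, which stabilizes 7SK RNA, was not called in either (0.05 and 0.17). Of the 7 genes of P-TEFb and the particle, 3 were higher and 2 lower in FIBCL than in SCDM, beside 32.7% and 39% of all genes. Their median was 0.05, and in deposited TPM 1 was higher and 4 lower with a median of -0.34. The 7SK RNA itself was not analysed here.

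Relative to the kinase, the inhibitor transcript was raised in FIBCL. The ratio of Hexim1 to Cdk9 was 0.795, 0.825 and 0.907 in FIBCL, 0.344, 0.31 and 0.287 in SCDM, 0.44, 0.384 and 0.473 in SCDM/FGF and 0.392, 0.483 and 0.472 in Sphere. The log2 ratio exceeded that of SCDM by 1.43, that of SCDM/FGF by 0.97 and that of Sphere by 0.91. The ratio of Hexim1 to Ccnt1 was 2.78, 2.51 and 3.12 in FIBCL, 1.63, 1.53 and 1.27 in SCDM, 1.54, 1.51 and 2.1 in SCDM/FGF and 1.77, 2.26 and 1.75 in Sphere, with log2 differences of 0.93, 0.72 and 0.55. No group overlapped FIBCL in either ratio, and every one of these 6 differences had a two-sided exact permutation p of 0.1 (adjusted p = 0.136).

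**Figure D3:**
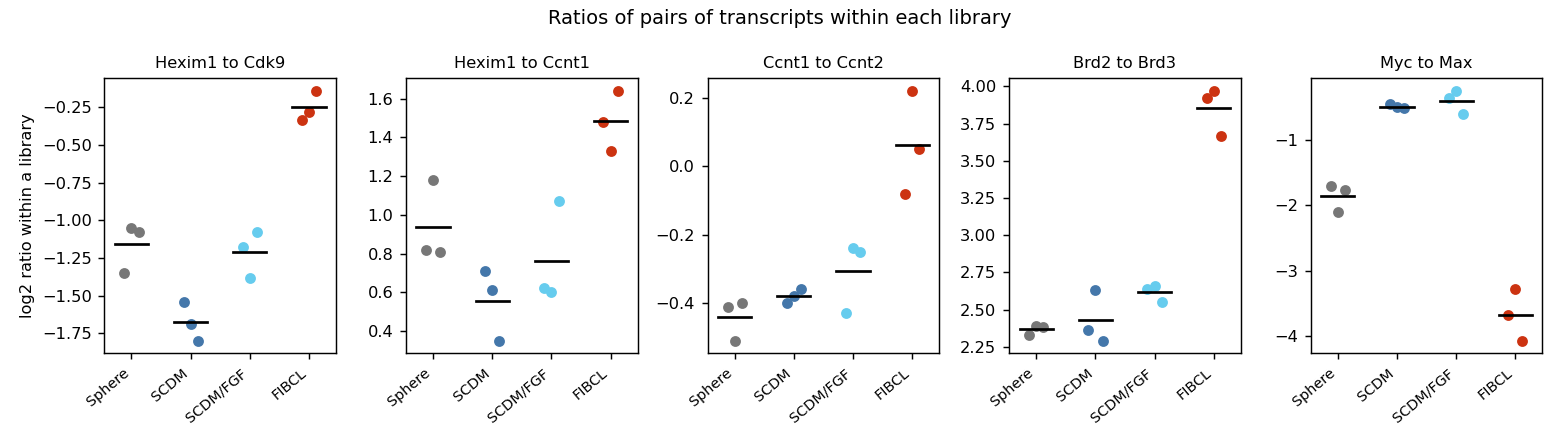
Log2 ratio of a pair of transcripts within each library (vertical axes, which do not start at 0) for 5 pairs, by group. Points are libraries and bars group means, and FIBCL is above every other library in the first 4 panels and below every other library in the ratio of Myc to Max.

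Myc, the transcription factor that drives growth and division, had its lowest level in FIBCL and its highest in the SCDM media. Its level was 5.31, 5.79 and 3.65 scaled TPM in FIBCL, 44.2, 42.1 and 45 in SCDM, 51.9, 50.7 and 48.5 in SCDM/FGF and 19.2, 17.9 and 19.5 in Sphere. No 2 groups overlapped. The log2 fold change of FIBCL was -2.94 from SCDM (SE 0.11, adjusted p = 7.91e-10), -3.14 from SCDM/FGF (adjusted p = 4.77e-10) and -1.77 from Sphere (adjusted p = 6.98e-08). In deposited TPM it was -3.27, -3.39 and -2.24.

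From Sphere, Myc rose by 1.17 in SCDM (adjusted p = 6.02e-06) and by 1.37 in SCDM/FGF (adjusted p = 1.74e-06), and FIBCL lay below the level of the spheres. The added bFGF gave a difference of 0.20, with an interval of -0.05 to 0.45 (adjusted p = 0.19). From Sphere to each SCDM medium 8 of 8 macrophage markers and 12 of 12 proliferation genes were higher, and between FIBCL and each SCDM medium all of these were lower. Of 7 mesenchyme markers 3 were higher and 3 lower from Sphere to SCDM, with Dcn at -0.67 and Pdgfra at -1.06. The 3 higher were the collagen genes Col1a1, Col1a2 and Col3a1. From Sphere to SCDM/FGF 6 of the 7 were higher and 1 lower, with a median of 0.75. All 7 were lower in FIBCL than in each SCDM medium. The summed level of the 12 proliferation genes was 117 to 123 in FIBCL, 192 to 197 in Sphere, 370 to 410 in SCDM and 313 to 445 in SCDM/FGF. In FIBCL Pcna and Tyms made up 92.1 and 16.2 of it, and against Sphere these were not called while the other 10 were lower, with a median of -2.29 over the list. The part of any of these in the level of Myc was not tested.

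Mycn, the neural relative of Myc, was close to the lower end of the table. Its level was 0.634, 0.911 and 0.854 scaled TPM in FIBCL, 0.505, 0.327 and 0.359 in SCDM, 0.657, 0.614 and 0.508 in SCDM/FGF and 0.407, 0.262 and 0.353 in Sphere. FIBCL was above SCDM and Sphere and overlapped SCDM/FGF, but in deposited TPM the lowest FIBCL library and the highest SCDM library were both at 0.53. Since no library reached 1 TPM the gene was not tested, and its mean in FIBCL was below that of Myc (0.8 against 4.92). Mycl, the third gene of the family, had a mean of 0.92 in FIBCL and 0.145 in SCDM and was called higher by 0.75 (adjusted p = 0.00715). Its mean was 0.209 in Sphere and 0.686 TPM over the 12 libraries. By that mean over the 12 libraries, its level in SCDM/FGF was above that in FIBCL. The part of any single agent in these levels was not tested.

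Max, the partner that MYC needs to bind DNA, was not called between FIBCL and SCDM (62.3 against 61.1 scaled TPM, log2 fold change 0.02, adjusted p = 0.832). The ratio of Myc to Max was 0.0774, 0.102 and 0.0592 in FIBCL, 0.736, 0.711 and 0.703 in SCDM, 0.783, 0.845 and 0.666 in SCDM/FGF and 0.308, 0.234 and 0.296 in Sphere. The log2 ratio of FIBCL was -3.20 from SCDM, -3.29 from SCDM/FGF and -1.83 from Sphere (two-sided exact permutation p = 0.1, adjusted p = 0.136).

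The proteins that compete with MYC for MAX did not move together. Mxd4 fell by 3.01 on the log2 scale from SCDM (90.9 to 10.4 scaled TPM, adjusted p = 5.96e-13), Mxd3 by 3.03 (10.1 to 0.405, adjusted p = 2.47e-07), Mnt by 0.85 and Mxi1 by 0.28. The 1 added to levels before taking logs understates the change of a gene that is low in a group, such as Mxd3. Mxd1 was higher by 0.35 and Mga, the largest protein of the network, by 0.59 (adjusted p = 0.000495). Of the glucose-sensing branch, Mlxipl was higher by 1.65 (0.626 to 4.19), Mlx by 0.43, and Mlxip was not called (0.17). Of the 12 genes of the network that were tested, with Mycn as the 13th, 5 were higher and 5 lower, beside 32.7% and 39% of all genes. The median was 0.10, while in deposited TPM 2 were higher and 6 lower with a median of -0.29. Against Sphere 4 were higher and 7 lower, beside 32.9% and 38.7% of all genes, with a median of -0.43. Against SCDM/FGF the numbers were 2 and 6, beside 32.5% and 38.2% of all genes, with a median of -0.54. Mxd1 was among those lower than in Sphere, at -0.45 (5.45 against 7.77, adjusted p = 0.00396), as was Mlxip at -0.43. Mxd1 was highest in SCDM/FGF, since its mean over the 12 libraries, 9.5 TPM, exceeded its level in the other groups.

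A list of 35 nucleolar and biosynthetic genes known as MYC targets was measured in full. From Sphere to SCDM, as Myc rose, 28 were higher and 0 lower, with a median log2 fold change of 0.39 beside -0.01 for all genes. In deposited TPM 20 were higher and 0 lower. From Sphere to SCDM/FGF 20 were higher and 1 lower, with a median of 0.25, while in deposited TPM the numbers were 8 and 5 with a median of 0.03. Percentages of all genes called in these comparisons were 50.3% and 50.4%, with 24.5% and 25% of all genes higher.

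In FIBCL, where Myc was lowest, the list was not uniformly low. Against SCDM 7 were higher and 14 lower, beside 32.7% and 39% of all genes, with a median of -0.06. In deposited TPM the numbers were 2 and 25 with a median of -0.44. Against Sphere 23 were higher and 4 lower, beside 32.9% and 38.7% of all genes, with a median of 0.35 after rescaling. In deposited TPM 5 were higher and 15 lower with a median of -0.18. The median of all genes was -0.06 and -0.51 on these scales, so the list lay above it on both. Against SCDM/FGF 14 were higher and 8 lower, beside 32.5% and 38.2% of all genes, with a median of 0.00. In deposited TPM the numbers were 5 and 19.

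Odc1, the first enzyme of polyamine synthesis, stood apart from the rest of the list. Its mean was 1543 scaled TPM in FIBCL, 116 in SCDM and 32.2 in Sphere, a log2 fold change of 3.72 from SCDM (SE 0.05, adjusted p = 2.2e-13) and 5.54 from Sphere. Exosc5, a subunit of the RNA exosome, fell by 1.24 from SCDM (27.6 to 11.1, adjusted p = 5.8e-08), and Tcof1, the nucleolar protein treacle, fell by 0.96 (17.3 to 8.43, adjusted p = 2.07e-07). Ncl and Npm1, abundant nucleolar proteins, were at 212 and 666 scaled TPM in FIBCL, with log2 differences of 0.02 (not called) and -0.52 from SCDM and 0.56 and 0.32 from Sphere. These last 2 genes were named after their values were seen.

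**Figure D4:**
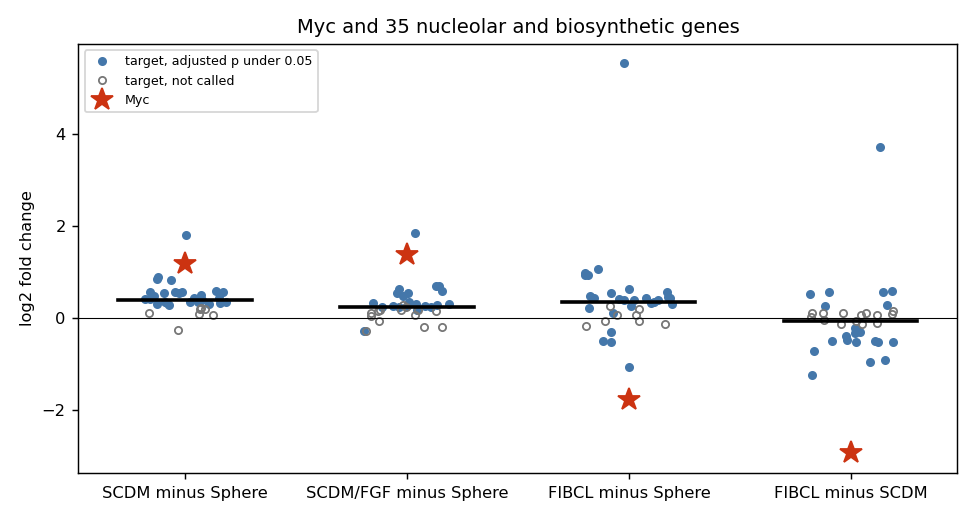
Log2 fold change (vertical axis, scaled TPM) of Myc (stars) and of the 35 nucleolar and biosynthetic genes (circles, filled where the adjusted p was under 0.05) in 4 comparisons, with bars at the median of the 35. Most of the 35 lie above 0 with Myc in the comparisons of SCDM and SCDM/FGF with Sphere, and in FIBCL minus Sphere most lie above 0 while Myc is at -1.77. The median of the 35 in that comparison is 0.35, or -0.18 in deposited TPM, beside -0.06 and -0.51 for all genes. The circle far above the rest for FIBCL is Odc1.

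Serpini1 codes for neuroserpin, a protease inhibitor secreted by neurons, and it is also known to rise under BET inhibitors in other cells. Its level was 15.8, 14.8 and 16 scaled TPM in FIBCL, 0.286, 0.29 and 0.246 in SCDM, 0.382, 0.574 and 0.335 in SCDM/FGF and 0.525, 0.673 and 0.218 in Sphere. It was under 1 TPM in all 9 libraries outside FIBCL, so it passed the limit on low values only through FIBCL and had to differ. The log2 fold change with a pseudocount of 1 was 3.70 from SCDM (SE 0.12, adjusted p = 2.33e-10), 3.53 from SCDM/FGF and 3.50 from Sphere. With a pseudocount of 0.1 it was 5.39, 4.91 and 4.87, since the larger pseudocount understates the change of a gene that is nearly absent from a group. The 8 neuron markers that were tested were high in the same libraries, while Elavl4 and Rbfox3 were not. Tubb3 and Map2, which were expressed in all groups, had means of 81.3 and 36.9 scaled TPM in FIBCL and 11.5 and 5.23 in SCDM, and Stmn2 of 187 and 1.81. Snap25 and Elavl3 were under 1 TPM outside FIBCL, so they too passed the limit only through FIBCL. Their part in the level of Serpini1 was not tested.

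Taken as a list, the 5 genes known to rise under BET inhibitors did not share a direction. Hexim1 and Serpini1 were higher in FIBCL than in SCDM, as were 32.7% of all genes. Serpini1 passed the limit on low values only through FIBCL and so had to differ. Lower calls made up 39% of all genes. Zcchc24 fell by 1.05 on the log2 scale (52.7 to 24.9 scaled TPM, adjusted p = 4.59e-09) and Zmynd8 by 0.42 (adjusted p = 0.000119). The histone gene H2bc21 was not called (-0.28, adjusted p = 0.0744). In deposited TPM 2 of the list, with Serpini1 among them, were higher and 3 lower. Against Sphere the same 2, of which Serpini1 again had to differ, were higher and the other 3 lower, with -1.96 for Zcchc24. Of all genes 32.9% were higher and 38.7% lower there.

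Of 7 genes known to fall under BET inhibitors in blood cells or tumours, 5 were tested. Myc and the B cell and macrophage receptor gene Cd180 were lower in FIBCL than in SCDM, Cd180 by a log2 fold change of -3.11 (8.49 to 0.0818 scaled TPM, adjusted p = 2.59e-08), and macrophage markers fell in the same comparison. The AP-1 gene Fosl1 was higher by 0.88 (adjusted p = 0.00446), Cdk6, a kinase of G1 phase, by 0.44 (adjusted p = 0.0117) and the survival gene Bcl2 by 0.32 (adjusted p = 0.00268), while in deposited TPM only 1 of the list was called higher and 2 lower. Against SCDM/FGF, which also holds bFGF, 1 was higher and 4 lower, beside 32.5% and 38.2% of all genes, with a median of -1.78. There Fosl1 was lower, with a log2 fold change of -2.42 (6.74 in FIBCL against 40.4, adjusted p = 1.85e-06), as was Cdk6 with -0.33 (8.32 against 10.8, adjusted p = 0.048, with overlapping libraries), while Bcl2 was higher by 0.40. Against Sphere 1 was higher and 3 lower, beside 32.9% and 38.7% of all genes. The median there was -0.58, with 0.81 for Cdk6 and -0.58 for Bcl2. The receptor genes Ccr2 and Il7r did not pass the limit on low values.

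Around P-TEFb, the other elongation factors were measured as lists. In the super elongation complex, which brings P-TEFb to paused genes, 8 of 9 genes were tested. Of these 5 were higher and 1 lower in FIBCL than in SCDM, beside 32.7% and 39% of all genes. The median was 0.58 beside -0.07 for all genes. In deposited TPM 4 were higher and 2 lower with a median of 0.19. The scaffold gene Aff1 rose by 1.18 (14.3 to 33.5 scaled TPM, adjusted p = 4.08e-08), the acetyl-lysine reader Mllt3 by 0.80 and the ELL partner Eaf1 by 0.65. Against Sphere 4 of the 8 were higher and 1 lower, where 32.9% and 38.7% of all genes were. The median was 0.25, or -0.27 in deposited TPM, beside -0.06 and -0.51 for all genes. Against SCDM/FGF 4 were higher and 1 lower, beside 32.5% and 38.2% of all genes, with a median of 0.32. In SCDM/FGF 4 were higher and 1 lower than in SCDM, beside 21.8% and 21.3% of all genes, with a median of 0.28. Aff1 was at 26.6 in SCDM/FGF, 0.86 above SCDM (adjusted p = 2.24e-06) and 0.32 below FIBCL.

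Of the 6 genes of NELF and DSIF, which hold the polymerase near the start, 0 were higher and 3 lower in FIBCL than in SCDM. Of all genes 32.7% were higher and 39% lower. The list median was -0.18 beside -0.07 for all genes. In deposited TPM all 6 were lower, with a median of -0.57 beside -0.40. Against Sphere 0 were higher and 5 lower, beside 32.9% and 38.7% of all genes. Against SCDM/FGF the numbers were 1 and 3, beside 32.5% and 38.2%. From SCDM, Nelfa fell by 0.72 (13.8 to 8.04, adjusted p = 3.1e-05), Supt4a by 0.27 and Nelfcd by 0.19. Among 11 genes of the PAF1 complex and elongation chaperones 6 were higher and 2 lower than in SCDM, beside the same shares, with a median of 0.17. In deposited TPM 2 were higher and 6 lower, with a median of -0.22 beside -0.40 for all genes. Ctr9 rose by 0.76 (28.1 to 48.3, adjusted p = 1.02e-07) and Paf1 by 0.65, while Tcea1, the elongation factor TFIIS, fell by 1.04 (92.9 to 44.7, adjusted p = 4.99e-09).

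Of 12 genes of the other transcriptional CDKs and their cyclins, 3 were higher and 4 lower in FIBCL than in SCDM, with a median of -0.00. Of all genes 32.7% were higher and 39% lower. In deposited TPM 2 of the list were higher and 7 lower, with a median of -0.39 beside -0.40 for all genes. The Mediator kinase Cdk8 had a mean of 727 ± 154 scaled TPM in FIBCL (SD, n = 3) and 106 ± 4.38 in SCDM, a log2 fold change of 2.75 (adjusted p = 9.16e-08), while its paralog Cdk19 fell by 1.46 (14.7 to 4.74) and Cdk7 of TFIIH by 1.09 (35.4 to 16.2). The Cdk8 level in FIBCL ranged from 616 to 903, a far wider spread than for Cdk9. Its cyclin gene Ccnc, named after its value was seen, was not called (13.9 in FIBCL against 12.5 in SCDM, adjusted p = 0.282). Whether all reads counted for Cdk8 came from its mRNA was not tested.

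**Figure D5:**
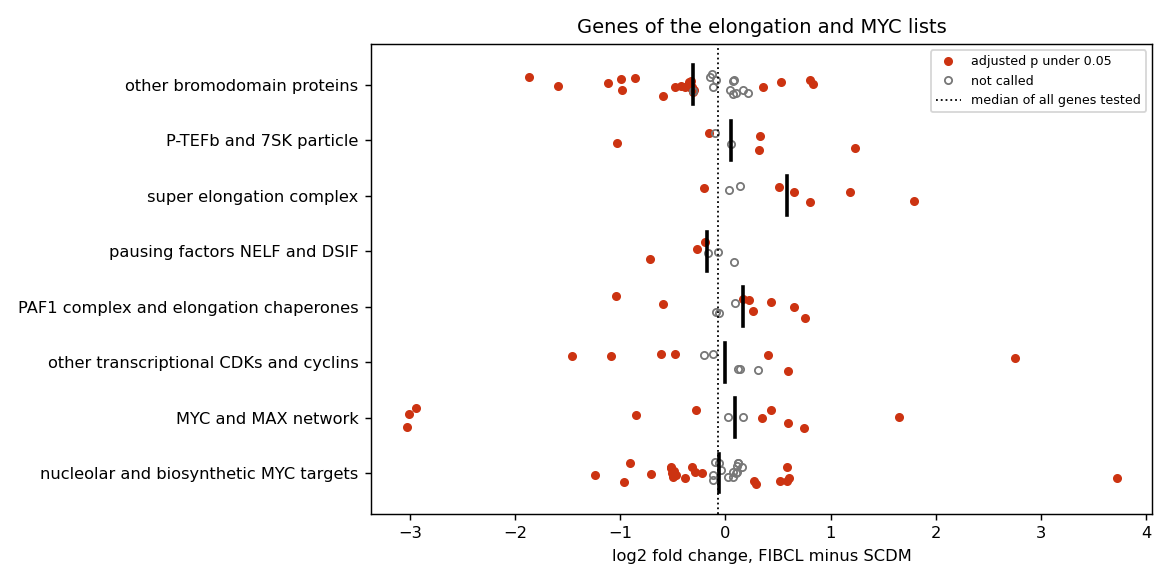
Log2 fold change between FIBCL and SCDM (horizontal axis, scaled TPM) of the tested genes of 8 lists, 1 point a gene, filled where the adjusted p was under 0.05, with black bars at list medians and a dotted line at the median of all tested genes. The super elongation complex has the highest median (0.58) and the other bromodomain proteins the lowest (-0.30), and the points farthest to the right are Odc1 and Cdk8. In deposited TPM the medians of P-TEFb, PAF1 and the MYC network are -0.34, -0.22 and -0.29, beside -0.40 for all genes.

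Of the groups without I-BET151, Sphere was compared first with each SCDM medium. From Sphere to SCDM, 1 member was higher and 2 lower, beside 50.3% of all genes called (24.5% higher and 25.8% lower). The groups did not overlap for 4, beside 58.6% of all genes. Apart from Myc and Hexim1, the call was Brd2 at -0.12 (adjusted p = 0.0289), which 8 of the 16 alternatives did not make. Leaving out any 1 of the Sphere libraries gave adjusted p values of 0.0615 to 0.0669, without SCDM replicate 1 it was 0.104 and without SCDM replicate 3 it was 0.106. Without Sphere replicate 3, Serpini1 was called lower in SCDM by -0.33. In deposited TPM 1 member was higher and 3 lower, beside a median of -0.13 for all genes. There Brd2 was at -0.26 (adjusted p = 0.00162), and Brd3 was also called, at -0.31 (adjusted p = 0.00418).

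From Sphere to SCDM/FGF, 1 member was higher and 3 lower, beside 50.4% of all genes called (25% higher and 25.4% lower). The groups did not overlap for 5, beside 57% of all genes. Brd3 fell by 0.28 (adjusted p = 0.015, or 0.0535 without SCDM/FGF replicate 2) and Cdk9 by 0.22 (adjusted p = 0.00427), beside Hexim1 and Myc. In deposited TPM 1 was higher and 6 lower, and without SCDM/FGF replicate 1 Ccnt2 was also called lower (-0.37, adjusted p = 0.00868). These comparisons share the Sphere libraries.

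The addition of bFGF to SCDM changed 2 members, 1 in each direction, beside 43.1% of all genes called (21.8% higher and 21.3% lower). The groups did not overlap for 3, beside 51.6% of all genes. Cdk9 fell by 0.25 (adjusted p = 0.00232), and this call held under each of the 16 alternatives. Hexim1 was higher by 0.20 (adjusted p = 0.046), with overlapping libraries, and 10 of the 16 alternatives did not call it, among them those without SCDM replicate 2 or 3 or SCDM/FGF replicate 1 or 3 (adjusted p = 0.0864, 0.168, 0.112 and 0.165). Without SCDM replicate 2, Brd2 was called higher by 0.12.

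For each tested member the genes with the most similar profile were sought among 11209 genes with a mean of at least 5 TPM, by the root mean square difference of centred log2 levels over the 12 libraries. The nearest to Brd2 were Vps18, Mlf2 and Ctr9, all at 0.05. Ctr9 rose from 28.1 in SCDM to 48.3 in FIBCL and Mlf2 from 191 to 344. The nearest to Hexim1 were Agap3, Slc35e4 and Atp6v1b2 at 0.09, and Atp6v1b2, a subunit of the vacuolar proton pump, had means of 180 in FIBCL, 111 in Sphere, 74 in SCDM and 83.9 in SCDM/FGF.

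Myc and Serpini1 had less close neighbours. Nearest to Myc were Igsf6, an immunoglobulin superfamily gene, and Slc39a14, a metal ion transporter, both at 0.21, and Fkbp11 at 0.23. The mean of Igsf6 was 2.73 scaled TPM for Sphere, 9.3 for SCDM, 8.15 for SCDM/FGF and 0.104 for FIBCL. Nearest to Serpini1 were Dusp14 and Bean1 at 0.20 and Syn1, the synaptic vesicle protein synapsin, at 0.22, the last at 32.4 in FIBCL and at most 1.6 in any other group.

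The nearest to Brd3 were Ing1 and Ctdnep1 at 0.07 and Mta2 at 0.08, of which Ing1 and Mta2 code for parts of histone deacetylase complexes. The nearest to Cdk9 were Rdx, Nob1 and Heatr3 at 0.05 to 0.07. For Ccnt1 they included Proser1 and Prdm2, and for Ccnt2 they were Slc25a36, Gli3 and Ccar1, at 0.06 to 0.09, profiles that vary little across the groups.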

How the data were processed

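The 12 libraries were grouped by the sample labels, 3 per group. The authors trimmed the reads and used TopHat for alignment and RSEM for quantification, and the deposited values are TPM with 2 decimals, although the methods speak of fragments per kilobase. Genome build and strand setting are not given in the sources used here. TPM keeps no read number, so depth is unknown and no interval that needs counts was computed.

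A gene was tested if 3 or more libraries reached 1 TPM. To rescale libraries, log2 ratios to their average were taken over the 8434 genes that reached 5 TPM everywhere, 30% was trimmed at each end and the mean was removed, an offset averaging -0.32 for FIBCL and 0.23 for Sphere. Values as log2(scaled TPM + 1) entered limma 3.58.1 (R 4.3.3) with a mean-variance trend, in one model of 4 groups and 6 comparisons, with Benjamini-Hochberg adjustment over all genes tested in a comparison. Fold changes are on this log2 scale, so for genes that are low in a group they are smaller than the printed levels give. The model was also run on simulated data in which only a small share of genes changed and no library was shifted. These data differ in both respects, so that run does not bear on the rescaling or on the share of genes called. Ratios within a library were compared by two-sided exact permutation tests, adjusted over 30. The p-values measure the spread between the labelled biological replicates, whose animals or cultures are not described further.

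The members and gene lists were chosen with earlier results of these data known. Named genes are the members, every gene of the short lists, up to 3 genes of each other list with the largest change between FIBCL and SCDM (mean of at least 5 TPM, groups not overlapping), and the 3 nearest profiles of each member. Some genes that the lists and this rule name are not reported here. GENCODE M21 (GRCm38) held 55227 of the identifiers. Alternatives covered scaling, pseudocount (0.1 and 0.5), limit on low values, samples in the model, variance trend, replicate block and each library left out. Figures used matplotlib 3.10.9 in Python 3.11.15.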

Additional observations from a re-analysis of the deposited data

How the results depend on the processing

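Of the alternative values of member fold changes, 694 kept direction and call, 35 lost the call, 18 gained it and 15 changed sign. Brd2, Brd3, Hexim1 and Myc kept direction and call between FIBCL and each other group in 16 of 16 alternatives. Serpini1, which had to differ because it passed the limit on low values only through FIBCL, gave no value with at least 1 TPM required in every library. Their log2 fold changes from SCDM ranged from 0.47 to 0.94 for Brd2, -0.90 to -0.44 for Brd3, 0.83 to 1.28 for Hexim1, -3.27 to -2.77 for Myc and 3.38 to 5.39 for Serpini1.

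In deposited TPM, 7 members were called between SCDM/FGF and Sphere, against 4. Between SCDM/FGF and SCDM, 1 was called in place of 2 in deposited TPM, with quantile normalization, with no filter on low values, without the variance trend and with the replicate number as a block, and 1 to 2 when each library was left out. In deposited TPM the called genes were 6 in place of 3 for NELF and DSIF and 3 in place of 5 for the genes known to fall under BET inhibitors.

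Signs changed in deposited TPM for Ccnt1 between FIBCL and SCDM (-0.06) and Sphere (-0.30), Cdk9 between FIBCL and SCDM/FGF (-0.22) and between SCDM and Sphere (-0.11), and Brd2 between SCDM/FGF and SCDM (-0.01). Ccnt2 between FIBCL and SCDM/FGF was 0.06 with quantile normalization, and Ccnt1 between SCDM/FGF and SCDM was 0.01 with median of ratios scaling. The cause was not tested. With each library left out, sign changes came only in differences that were not called: Ccnt2 between FIBCL and SCDM/FGF ranged from -0.16 to 0.11 (0.11 without SCDM/FGF replicate 1, 0.01 without FIBCL replicate 3), Cdk9 between SCDM and Sphere from -0.01 to 0.09, Serpini1 between SCDM/FGF and Sphere from -0.16 to 0.07, Ccnt1 and Ccnt2 between SCDM/FGF and SCDM from -0.08 to 0.09 and from -0.21 to 0.05, the log2 ratio of Hexim1 to Cdk9 between SCDM/FGF and Sphere from -0.15 to 0.03, and that of Brd2 to Brd3 between SCDM and Sphere from -0.04 to 0.13.

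Libraries of the same number share only a number: over 18 pairs, their deviations from the group means correlated at -0.12 to 0.10, and 0 pairs exceeded 0.1. The replicate block ended the calls of Brd2 between SCDM and Sphere (adjusted p = 0.0512 in limma) and of Hexim1 between SCDM/FGF and SCDM (adjusted p = 0.0674), and no other member call.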
